A study of Mus musculus with 12 samples.

Results

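The genes described here are 45 mouse genes of DNA replication and S phase, the stage of the cell cycle in which the genome is copied. They were taken by gene symbol from the deposited table of 15721 genes, in which all 45 had a row. All 45 also passed the filter on low values, which asked for 10 or more normalized reads in 3 or more of the 12 libraries and kept 13231 genes. A normalized read is a read divided by the authors' size factor for its library. Messenger RNA had been sequenced from peritoneal macrophages, isolated by FACS from C57BL/6 mice, in 3 libraries from each of 4 genotypes. Samhd1 KO mice (labelled ages 19, 18 and 16, with no unit) were deficient for SAMHD1, an enzyme that breaks down deoxynucleotides. Samhd1 Cardif dKO mice (18, 18 and 16) also lacked Cardif, another name of MAVS, the adaptor of cytosolic RNA sensors, and Samhd1 Sting dKO mice (24, 16 and 18) also lacked STING, the adaptor of the DNA sensor cGAS. WT mice (16, 16 and 16) carried none of these deficiencies by their label. Every library came from a female mouse except Samhd1 Cardif dKO replicate 1, which came from a male. How the alleles were made is not stated in the labels, nor whether a library was pooled from several mice, so a p-value measures the spread between these libraries.

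Replication starts at origins that are licensed beforehand: the origin recognition complex, CDC6 and CDT1 load the MCM helicase onto DNA. In S phase the kinase CDC7 with DBF4 and the GINS complex turn the helicase on, primase and the DNA polymerases copy the strands, the clamp PCNA and its loader RFC hold the polymerases in place, and FEN1 and LIG1 join the pieces of the lagging strand. E2F transcription factors drive many of these genes as a cell leaves G1, so their transcripts are low in resting cells and high in cycling ones. Resident peritoneal macrophages are mostly resting, and are known to maintain themselves in part by dividing locally.

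The libraries held 18884021 to 32204657 reads, with a read in 15238 to 15470 genes. Samhd1 itself had 5555 to 7816 normalized reads in Samhd1 KO libraries, 2952 to 4307 in the Samhd1 Cardif dKO and 3196 to 4563 in the Samhd1 Sting dKO ones, all below the 10113 to 11525 of WT, and its transcript was thus reduced but present. Mavs was at 509 to 525 normalized reads in Samhd1 Cardif dKO, below its 768 to 1008 in the other groups, whose lowest and highest libraries were both Samhd1 Sting dKO. Tmem173, which encodes STING, was at 538 to 577 in Samhd1 Sting dKO, below the 696 to 768 of Samhd1 KO but overlapping the 481 to 548 of WT. Csf1r, the receptor of the macrophage growth factor, had 38280 to 48318 normalized reads over the libraries. Gata6, a factor of resident peritoneal macrophages, had 3134 to 4414, and Cd3e, a T cell gene, at most 5.19. Of 10 T and NK cell markers, Cd3e among them, 8 had a row. These summed to 107 to 239 in Samhd1 Sting dKO and 50.9 to 71.2 in Samhd1 KO. They summed to 55.7 to 94.3 in the Samhd1 Cardif dKO libraries and 78.3 to 141 in WT. The 13 B cell marker genes summed to 3639 to 6132 normalized reads in Samhd1 Sting dKO, against 1576 to 2122 in Samhd1 KO, 1745 to 2491 in the Samhd1 Cardif dKO libraries and 2141 to 2873 in WT. Of 11 mast cell and eosinophil markers 7 had a row, and these summed to 44.1 to 530 in Samhd1 Sting dKO, 17.3 to 28.3 in Samhd1 KO, 49.2 to 90.1 in the Samhd1 Cardif dKO libraries and 95.5 to 276 in WT. Of the 10 marker genes of large peritoneal macrophages, 0 were called in any comparison by limma, where 0.144% to 6.5% of all tested genes were. In Samhd1 KO against WT, 1 of these 10 was lower at an unadjusted p under 0.05 by limma. At that cut 18.8% of all tested genes changed in either direction. The lowest adjusted p of the 10 there was 0.0590. Of 8 general macrophage markers 1, Fcgr1, was called lower in Samhd1 Sting dKO, both against Samhd1 KO and against WT, and had 1134, 1730.0 and 1177 normalized reads in the Samhd1 KO, 901, 993 and 894 in the Samhd1 Cardif dKO, 718, 557 and 736 in the Samhd1 Sting dKO and 1148, 969 and 1259.9 in the WT libraries. Of 7 tested markers of small peritoneal macrophages and dendritic cells, Zbtb46 was called higher and Cd209a lower in Samhd1 KO against WT. Ccr2, a monocyte receptor of that list, had 518, 780.4 and 912 normalized reads in the Samhd1 KO, 248, 646 and 805 in the Samhd1 Cardif dKO, 239, 323 and 958 in the Samhd1 Sting dKO and 202, 211 and 213 in the WT libraries. Samhd1 Sting dKO replicate 3 stood apart. The 4 of 7 erythroid markers with a row summed to 91.8 normalized reads in it, against 1.03 to 9.55 in the other libraries. It was also the lowest library for more of the tested genes (15.3%) than any other, and the highest library for 14% of them. The median changes of that group over the 45 genes are also given without it. The part of any of these cells in the results was not tested.

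The 45 genes varied together, and widely between libraries of the same genotype. Their summed level was 16890, 40899 and 23969 normalized reads in replicates 1 to 3 of Samhd1 KO, 59879, 27143 and 22798 in those of Samhd1 Cardif dKO, 17668, 15000 and 11554 in those of Samhd1 Sting dKO and 15890, 30835 and 13090 in those of WT. As a share of all normalized reads this was between 0.0502% in Samhd1 Sting dKO replicate 3 and 0.262% in Samhd1 Cardif dKO replicate 1. That library, the male one, was the highest of the 12 for 43 of the 45 genes, whereas 14% of all tested genes had their highest value in it. For 33 of the 45 the next was Samhd1 KO replicate 2 and then WT replicate 2. The lowest library was Samhd1 Sting dKO replicate 3 for 27 of the 45, against 15.3% of all tested genes, and WT replicate 3 for 12, against 7.63%. In bulk samples, fewer cells in S phase and less RNA per cell cannot be told apart.

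**Figure D1:**
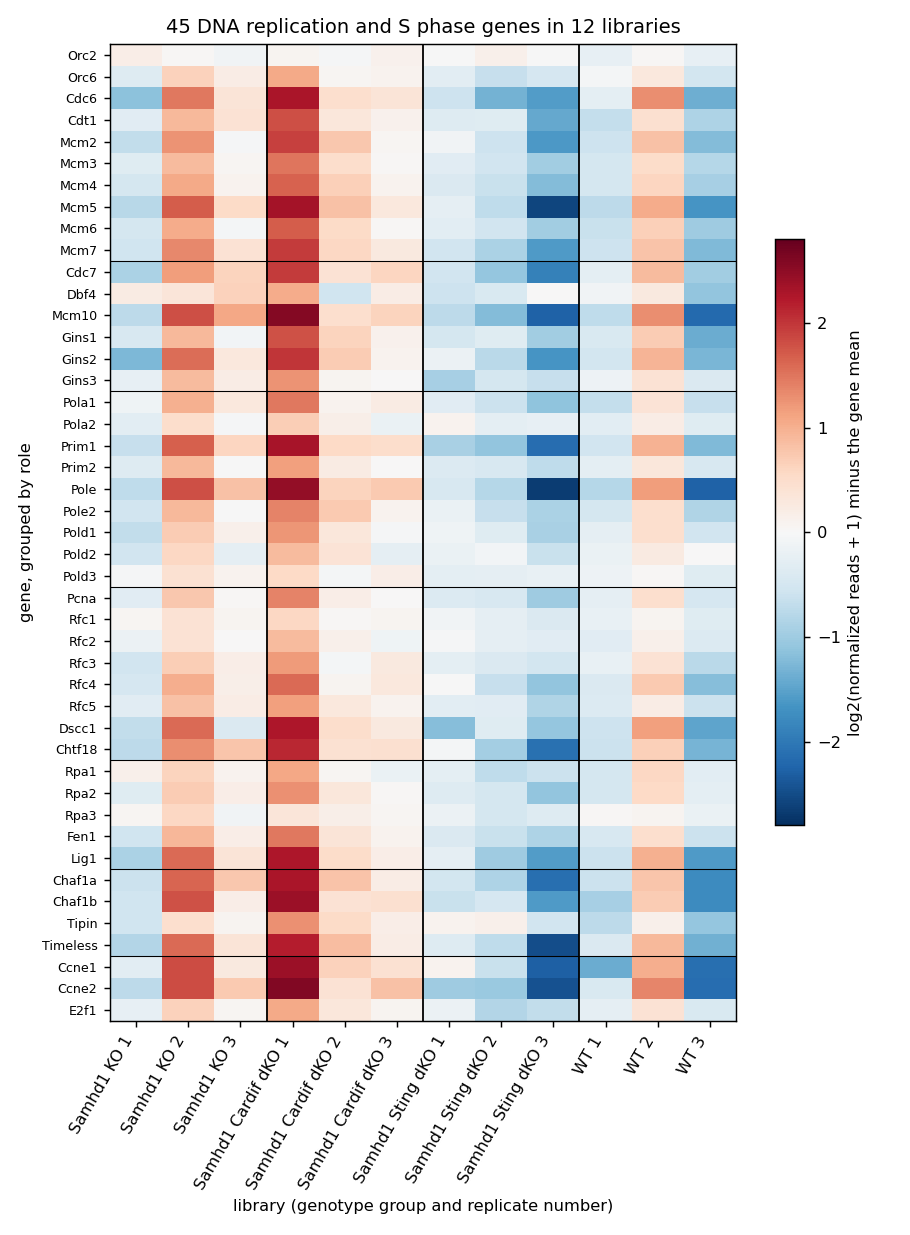
Each row is a gene, ordered by role, and each column a library; colour is log2(normalized reads + 1) minus the gene's mean over the 12 libraries, red above it and blue below. Samhd1 Cardif dKO replicate 1 is the reddest column, with its highest value for 43 of 45 genes, and Samhd1 KO replicate 2 and WT replicate 2 follow, while the 3 Samhd1 Sting dKO columns are mostly blue.

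No comparison between genotypes put any of the 45 genes past an adjusted p of 0.05 in limma's moderated test, which was fitted to all 13231 genes and all 12 libraries. In Samhd1 KO against WT, 44 of 45 log2 changes were above 0, with a median of 0.48 and a range of -0.10 to 1.43, beside a median of 0.00 over all tested genes. Of all tested genes 4.32% were called in that comparison, and of the 45 genes 0 were; at an unadjusted p under 0.05 by limma it was 18.8% of all genes and 0 of the 45. The edgeR quasi-likelihood test and DESeq2 on recovered reads called 0 as well. The lowest adjusted p was that of Rfc1, at 0.270, and for 0 of 45 genes did the 3 Samhd1 KO libraries lie wholly above or below WT, against 13.8% of all genes wholly above and 12.9% wholly below. Samhd1 KO replicate 1 lay between the lowest and the highest WT library for 42 genes, and WT replicate 2 lay above Samhd1 KO replicate 1 for 44. The median depended on single libraries: it was 0.11 without Samhd1 KO replicate 2 and 0.15 without WT replicate 3. It was 0.81 without Samhd1 KO replicate 1 and 0.94 without WT replicate 2, when 14 genes had an unadjusted p under 0.05. Here and below, the share of all tested genes at that cut was not computed for such refits. A changed count is thus not set apart from a change over all genes.

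Samhd1 Cardif dKO against WT had 45 of 45 log2 changes above 0, with a median of 1.03 and a range of 0.20 to 1.98. By limma and edgeR 0 were called, beside 1.06% of all tested genes by limma, and DESeq2 called 1, Tipin, beside 3.99% of the genes with an adjusted p there. An unadjusted p under 0.05 was reached by 13 genes, all higher, where 7.21% of all tested genes were, and the lowest adjusted p was 0.143, that of Tipin. Only Tipin had its 3 Samhd1 Cardif dKO libraries all above WT, against 9.85% of all genes. Without Samhd1 Cardif dKO replicate 1 the median was 0.53, and the 13 genes became 1 without that library, without WT replicate 1 or without WT replicate 3. They became 6 without Samhd1 KO replicate 3, 8 without Samhd1 Sting dKO replicate 2, 22 without Samhd1 Cardif dKO replicate 3 and 37 without WT replicate 2, and 2 with age as a covariate. Samhd1 Cardif dKO against Samhd1 KO had a median of 0.48, with 44 changes above 0. There 0 genes were called by limma, edgeR or DESeq2, beside 0.144% of all tested genes by limma. By limma 0 had an unadjusted p under 0.05, beside 8.98% of all tested genes, and the lowest adjusted p was 0.650, that of Tipin. The median was -0.0043 without Samhd1 Cardif dKO replicate 1, 0.07 without Samhd1 KO replicate 1, 0.80 without Samhd1 Cardif dKO replicate 3 and 0.83 without Samhd1 KO replicate 2.

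Samhd1 Sting dKO against Samhd1 KO had 44 of 45 log2 changes below 0, with a median of -0.83 and a range of -2.12 to 0.0003. Limma, edgeR and DESeq2 called 0, beside 5.66% of all tested genes by limma. By limma 16 had an unadjusted p under 0.05, all lower, where 11.6% of all tested genes were. The lowest adjusted p was 0.114, that of Rpa3. For 14 genes the 3 Samhd1 Sting dKO libraries all lay below Samhd1 KO, against 12.9% of all genes: Ccne2, Cdt1, Dbf4, Gins3, Mcm10, Pcna, Pola1, Pold3, Prim1, Prim2, Rfc1, Rpa1, Rpa2 and Rpa3. The count of 16 depended on the method, with 6 by limma-voom and 29 in a fit of the compared groups alone, and on single libraries. It was 0 without Samhd1 KO replicate 2, when the median was -0.46, and 3 without Samhd1 Sting dKO replicate 3, when the median was -0.66. It was 7 when Samhd1 KO replicate 3 was left out, and also when replicate 2 of Samhd1 Sting dKO was. It was 26 without Samhd1 Cardif dKO replicate 1. Without Samhd1 KO replicate 1 it was 33. Samhd1 Sting dKO against WT had 42 changes below 0 and a median of -0.38, which was 0.01 without WT replicate 2, -0.17 without Samhd1 Sting dKO replicate 3 and -0.69 without WT replicate 3. There 0 genes were called by limma, edgeR or DESeq2, beside 6.5% of all tested genes by limma. By limma 0 had an unadjusted p under 0.05, beside 22.4% of all tested genes. The lowest adjusted p was 0.316, that of Gins3, the only gene wholly below WT, against 13.9% of all genes. The B cell marker genes moved the other way with the same group: 11 of 13 were called higher against Samhd1 KO and 5 of 13 against WT. Of the 6 mast cell and eosinophil markers that were tested, 4 were called higher against Samhd1 KO, and in Samhd1 KO against WT 3 were called lower. The part of these cells in the replication transcripts was not tested. Age was highest, at 24, for Samhd1 Sting dKO replicate 1, and with age as a covariate the median was -0.92 against Samhd1 KO, with 15 genes at an unadjusted p under 0.05, and -0.56 against WT, with 1.

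The largest median change was between the 2 double knockouts, which differ in the adaptor that is missing. Samhd1 Cardif dKO against Samhd1 Sting dKO had 45 of 45 log2 changes above 0, with a median of 1.28 and a range of 0.01 to 2.76. For 40 genes all 3 Samhd1 Cardif dKO libraries lay above all 3 Samhd1 Sting dKO libraries, as 9.91% of all tested genes did; the exceptions were Dbf4, Orc2, Pola2, Pold2 and Rfc2. An unadjusted p under 0.05 was reached by 39 genes, all higher, where 7.97% of all tested genes were. After adjustment limma and edgeR called 0, beside 0.28% of all tested genes by limma. The lowest adjusted p by limma was 0.136, that of Prim1. DESeq2 called 8, all higher, beside 3.8% of all genes: Cdc7, E2f1, Gins1, Gins3, Orc6, Pole2, Prim1 and Rfc5, with adjusted p-values from 0.0190 for E2f1 to 0.0489 for Orc6. In the authors' deposited table, whose fold runs the other way as Sting over Cardif, all 45 genes were also higher in Samhd1 Cardif dKO, 29 had a p under 0.05 (4.59% of all its genes did so in that direction), and the lowest adjusted p of the 45 was 0.331, that of E2f1. Samhd1 Cardif dKO replicate 1, the male library, bore on the size: without it the median was 0.87 and 17 genes had an unadjusted p under 0.05, and the part of sex was not tested. Without Samhd1 Sting dKO replicate 3 the median was 1.15, with 22 genes. The comparisons share libraries with each other, so their values are not independent. The 45 genes also varied together, so a count of them is not a count of separate observations. Of the B cell marker genes 2 of 13 were called lower in Samhd1 Cardif dKO than in Samhd1 Sting dKO and all 13 had an unadjusted p under 0.05, and their part in this difference was not tested.

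**Figure D2:**
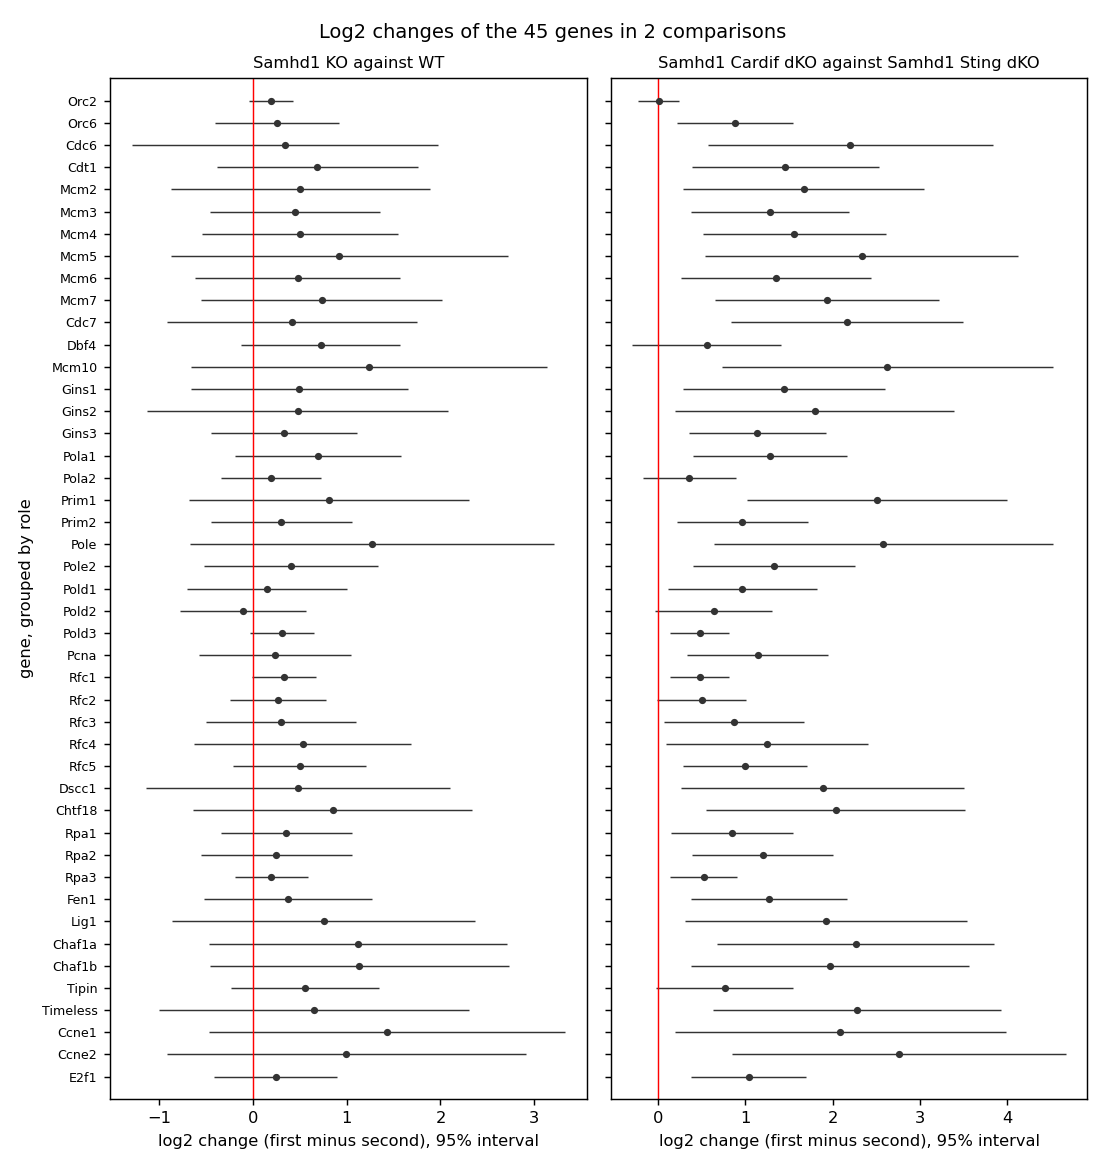
Log2 change of each gene (points) with its 95% interval from limma (lines) in Samhd1 KO against WT (left) and Samhd1 Cardif dKO against Samhd1 Sting dKO (right), with genes ordered by role. On the left the intervals span 0, while on the right 39 of 45 lie above it before adjustment.

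Among the genes of origin licensing, 4 of the subunits of the MCM helicase were the most abundant. Per kb of transcript and averaged over the 12 libraries, Mcm3 had 432 normalized reads, Mcm6 421, Mcm5 350, Mcm4 304, the helicase loader Cdt1 270, Mcm7 248 and Mcm2 237, although the MCM proteins form a ring with equal numbers of each. Per kb, Rfc2 (494) and Pcna (484) were the highest of the 45 genes, and Dscc1 (12.4), Ccne1 (22.4) and Dbf4 (28.6) the lowest. Mcm6 had 1112, 3199 and 1488 normalized reads in the Samhd1 KO, 4998, 2244 and 1595 in the Samhd1 Cardif dKO, 1268, 1069 and 792 in the Samhd1 Sting dKO and 1007, 2483 and 780.4 in the WT libraries, here and below in the order of replicates 1 to 3. Samhd1 Cardif dKO replicate 1 was the highest, and among the groups only Samhd1 Cardif dKO and Samhd1 Sting dKO did not overlap. Its log2 change was 0.48 ± 0.50 (SE, adjusted p = 0.647) in Samhd1 KO against WT, and 1.35 ± 0.50 (SE, adjusted p = 0.219) in Samhd1 Cardif dKO against Samhd1 Sting dKO.

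Mcm5 spread the most of the licensing genes. It had 475, 2639 and 1181 normalized reads in the Samhd1 KO, 4152, 1458 and 999.7 in the Samhd1 Cardif dKO, 684, 501 and 137 in the Samhd1 Sting dKO and 489.5, 1696 and 260.1 in the WT libraries, which is a 30.3-fold range over the 12 libraries. Its lowest library was Samhd1 Sting dKO replicate 3 and its next lowest WT replicate 3, and the Samhd1 KO libraries lay on both sides of WT replicates 1 and 2. The log2 change was 0.92 ± 0.82 (SE, adjusted p = 0.581) in Samhd1 KO against WT, with a 95% interval of -0.87 to 2.72, and 2.33 ± 0.82 (SE, adjusted p = 0.203) in Samhd1 Cardif dKO against Samhd1 Sting dKO. Mcm2 had 389.8, 1507 and 618 normalized reads in the Samhd1 KO, 2366, 1056 and 647 in the Samhd1 Cardif dKO, 582, 421 and 204 in the Samhd1 Sting dKO and 420.4, 1113 and 269.8 in the WT libraries. Its Samhd1 KO mean of 838 ± 590.4 against 601 ± 449.8 in WT (SD, n = 3 each) gave a change of 0.51 ± 0.63 (SE, adjusted p = 0.711). With single libraries left out that change ran from -0.03 (without Samhd1 KO replicate 2) to 1.08 (without WT replicate 2).

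Orc2, a subunit of the origin recognition complex, went against the pattern. It had 429, 387 and 355 normalized reads in the Samhd1 KO, 400.5, 367 and 409.6 in the Samhd1 Cardif dKO, 375, 417 and 377 in the Samhd1 Sting dKO and 320.0, 384 and 322 in the WT libraries, so that no library stood out and the range over all 12 was 1.34-fold. Its change was 0.19 ± 0.11 (SE, adjusted p = 0.369) in Samhd1 KO against WT, and 0.01 ± 0.11 (SE, adjusted p = 0.975) in Samhd1 Cardif dKO against Samhd1 Sting dKO, with a 95% interval of -0.22 to 0.24 on the log2 scale. The other licensing genes were Orc6, a further subunit of the complex, Cdc6 and Cdt1, the loaders of the helicase, and Mcm3, Mcm4 and Mcm7. Their log2 changes ran from 0.26 (Orc6) to 0.74 (Mcm7) in Samhd1 KO against WT, and from 0.88 (Orc6) to 2.20 (Cdc6) in Samhd1 Cardif dKO against Samhd1 Sting dKO. Cdc6, which is made anew in each cycle, ranged 14.7-fold over the libraries, against 5.50-fold for Mcm3.

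**Figure D3:**
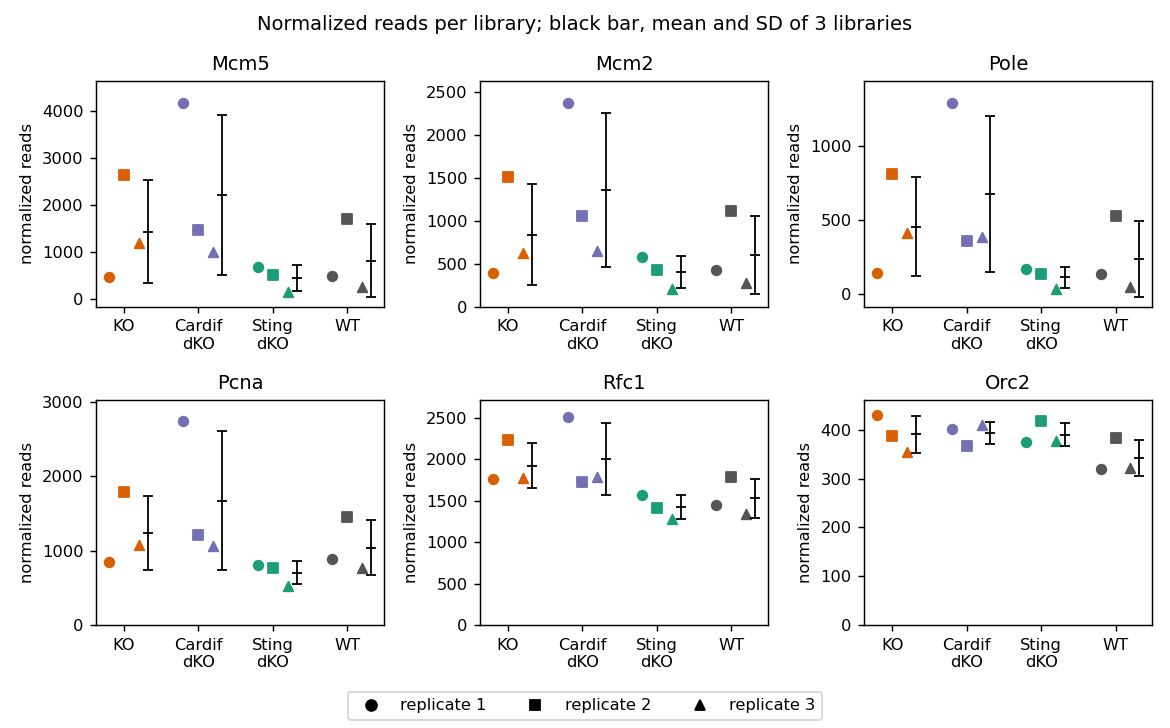
Normalized reads (y axis, linear) of 6 of the genes in each library, by genotype; the shape marks the replicate number and the black bar the mean and SD of 3 libraries. Mcm5, Mcm2, Pole and Pcna have 1 high library in Samhd1 KO, Samhd1 Cardif dKO and WT, while Rfc1 varies less and Orc2 has none.

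E2F factors bind promoters through short motifs, so the promoters of these genes were read for them. RefSeq windows on GRCm38.p6, from 250 bases before to 50 after the start (300 bases), were found for 36 of the 45 genes. The searched motifs were TTTCGCGC, TTTGGCGC and TTTCCCGC, on both strands; the first and the second can overlap on opposite strands. At least 1 of them lay in the windows of 13 of the 36 genes (36.1%), against 573 of 27025 genes (2.12%) with a window. These 27025 genes were not limited to the tested genes or to promoters of like base composition. TTTCGCGC was in 5 (13.9%, against 0.374%), TTTGGCGC in 6 (16.7%, against 0.585%) and TTTCCCGC in 7 (19.4%, against 1.24%). The genes with a motif were Mcm3, Mcm5, Mcm6, Mcm7, Cdc6, Cdt1, Gins3, Pola1, Pold1, Pold3, Pole2, Lig1 and Rfc3, and 6 of these are licensing genes. The 5 windows shown include those of 3 helicase genes with a motif. The others are those of Mcm10, which varied widely, and of Orc2, the flattest gene, both with no whole motif inside the window. They are written 5′ to 3′ on the gene's own strand, and capitals mark the motif or its reverse complement.
Mcm5: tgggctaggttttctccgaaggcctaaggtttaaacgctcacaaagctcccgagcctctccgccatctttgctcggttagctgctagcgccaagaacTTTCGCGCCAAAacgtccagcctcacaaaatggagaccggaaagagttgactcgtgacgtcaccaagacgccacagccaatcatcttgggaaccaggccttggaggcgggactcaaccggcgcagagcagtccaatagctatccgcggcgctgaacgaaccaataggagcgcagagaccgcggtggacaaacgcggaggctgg
Mcm6: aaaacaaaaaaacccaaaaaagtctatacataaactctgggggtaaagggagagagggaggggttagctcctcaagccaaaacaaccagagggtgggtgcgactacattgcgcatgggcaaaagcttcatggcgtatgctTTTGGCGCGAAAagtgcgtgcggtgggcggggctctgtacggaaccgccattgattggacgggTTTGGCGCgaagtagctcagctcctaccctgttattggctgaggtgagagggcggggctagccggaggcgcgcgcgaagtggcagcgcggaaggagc
Mcm3: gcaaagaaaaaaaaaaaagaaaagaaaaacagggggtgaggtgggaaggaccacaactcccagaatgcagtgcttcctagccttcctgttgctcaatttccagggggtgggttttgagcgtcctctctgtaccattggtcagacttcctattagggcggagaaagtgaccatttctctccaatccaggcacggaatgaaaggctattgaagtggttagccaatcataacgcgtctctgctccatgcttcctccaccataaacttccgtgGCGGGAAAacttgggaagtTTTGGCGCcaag
Mcm10: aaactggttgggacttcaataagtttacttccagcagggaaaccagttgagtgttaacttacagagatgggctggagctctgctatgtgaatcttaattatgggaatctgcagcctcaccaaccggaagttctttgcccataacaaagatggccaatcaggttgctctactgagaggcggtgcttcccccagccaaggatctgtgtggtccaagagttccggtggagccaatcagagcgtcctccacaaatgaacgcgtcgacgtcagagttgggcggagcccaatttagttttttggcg
Orc2: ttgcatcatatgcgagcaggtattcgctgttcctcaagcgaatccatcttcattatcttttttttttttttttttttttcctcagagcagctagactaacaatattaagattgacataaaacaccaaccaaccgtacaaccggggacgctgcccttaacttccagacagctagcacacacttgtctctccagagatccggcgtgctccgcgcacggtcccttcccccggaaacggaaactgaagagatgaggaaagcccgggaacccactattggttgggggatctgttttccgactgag

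The window of Mcm5 is chr8:75109259-75109558 on the plus strand, that of Mcm6 chr1:128359656-128359955, of Mcm3 chr1:20820263-20820562, of Mcm10 chr2:5012742-5013041 and of Orc2 (the first of 2 RefSeq windows) chr1:58505060-58505359, all 4 on the minus strand. In Mcm5, the 2 overlapping motifs begin 153 and 149 bases before the start on opposite strands. Mcm6 carries the same overlapping pair at 110 and 106 bases before the start, and a further motif 47 bases before it. The SD of log2 values between libraries of a genotype had a median of 0.620 over the 13 genes with a motif and 0.567 over the 23 without, a difference that was not tested. Mcm5 and Mcm10, at 1.23 and 1.29, differ in the motif within their windows and were close in spread. The Mcm10 window ends in tttggcg, the start of TTTGGCGC, and a motif that crosses the edge of a window is not counted. CCAAT, the motif of the factor NF-Y, was in 20 of the 36 windows (55.6%, against 41.1% of all genes), and TTTGAA or TTCGAA, the CHR motif of genes of late cell cycle stages, in 8 (22.2%, against 21.7%). A motif match describes the sequence and is not evidence of binding.

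The genes of origin firing and helicase activation differed in how closely they followed the common library order. Mcm10, which helps the helicase to open the origin, had 98.1, 574 and 346 normalized reads in the Samhd1 KO, 972, 228 and 254 in the Samhd1 Cardif dKO, 97.9, 69.7 and 33.4 in the Samhd1 Sting dKO and 100.4, 404 and 35.6 in the WT libraries. It was highest in Samhd1 Cardif dKO replicate 1, Samhd1 KO replicate 2 and WT replicate 2, and the Samhd1 Sting dKO libraries all lay below those of Samhd1 KO and of Samhd1 Cardif dKO. Its log2 change was -2.12 ± 0.87 (SE, adjusted p = 0.175) in Samhd1 Sting dKO against Samhd1 KO, the largest in size of the 45 there, 2.63 ± 0.87 (SE, adjusted p = 0.177) in Samhd1 Cardif dKO against Samhd1 Sting dKO, and 1.24 ± 0.87 (SE, adjusted p = 0.478) in Samhd1 KO against WT.

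Gins3, a subunit of the GINS complex, had 80.8, 178 and 111 normalized reads in the Samhd1 KO, 229, 100.3 and 96.9 in the Samhd1 Cardif dKO, 49.5, 67.5 and 60.8 in the Samhd1 Sting dKO and 87.1, 127 and 71.9 in the WT libraries. Its Samhd1 Sting dKO libraries lay below every library of the other 3 groups. Against WT the log2 change was -0.65 ± 0.36 (SE, adjusted p = 0.316), against Samhd1 KO it was -0.98 ± 0.36 (SE, adjusted p = 0.131), and in Samhd1 Cardif dKO against Samhd1 Sting dKO it was 1.14 ± 0.36 (SE, adjusted p = 0.168). The other 4 genes were Cdc7, the kinase that fires origins, its activator Dbf4, and the GINS subunits Gins1 and Gins2. Cdc7 had a change of 2.16 ± 0.61 (SE, adjusted p = 0.146) in Samhd1 Cardif dKO against Samhd1 Sting dKO, whereas Dbf4 had 0.56 ± 0.39 (SE, adjusted p = 0.539) and overlapped between those groups. Dbf4 also departed from the library order, being highest within Samhd1 KO and within Samhd1 Sting dKO in replicate 3. In Samhd1 KO against WT, Dbf4 had the larger change (0.72, against 0.42 for Cdc7), and the difference between both genes was not tested.

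Of the polymerase genes, those of the polymerase epsilon and delta complexes differed among themselves. Pole, the catalytic subunit of the leading strand polymerase epsilon, had 142, 811 and 412 normalized reads in the Samhd1 KO, 1284, 359 and 385 in the Samhd1 Cardif dKO, 169, 133 and 35.8 in the Samhd1 Sting dKO and 134, 524 and 47.4 in the WT libraries. It had the widest spread of all 45 genes, 35.9-fold over the 12 libraries, and WT alone held both its next lowest value, in replicate 3, and one of its highest, in replicate 2. Its log2 change was 1.27 ± 0.89 (SE, adjusted p = 0.478) in Samhd1 KO against WT, with a 95% interval of -0.67 to 3.21, and 2.58 ± 0.89 (SE, adjusted p = 0.193) in Samhd1 Cardif dKO against Samhd1 Sting dKO.

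Pold3, an accessory subunit of the lagging strand polymerase delta, had 1002, 1394 and 1100.4 normalized reads in the Samhd1 KO, 1517, 993 and 1180.3 in the Samhd1 Cardif dKO, 854, 863 and 893 in the Samhd1 Sting dKO and 932, 1058 and 819.7 in the WT libraries. The Samhd1 Sting dKO libraries were close to each other and lay below Samhd1 KO and Samhd1 Cardif dKO, but not below WT. Its changes were small and had small errors, 0.31 ± 0.16 (SE, adjusted p = 0.309) in Samhd1 KO against WT, -0.41 ± 0.16 (SE, adjusted p = 0.147) in Samhd1 Sting dKO against Samhd1 KO, and 0.48 ± 0.16 (SE, adjusted p = 0.174) in Samhd1 Cardif dKO against Samhd1 Sting dKO. Pold2, another accessory subunit, had 247, 534 and 302 normalized reads in the Samhd1 KO, 666, 472 and 299 in the Samhd1 Cardif dKO, 316, 341 and 231 in the Samhd1 Sting dKO and 313, 431 and 364 in the WT libraries. It was the 1 gene of the 45 with a change below 0 in Samhd1 KO against WT, -0.10 ± 0.31 (SE, adjusted p = 0.894).

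The other polymerase genes were Pola1 and Pola2 of polymerase alpha, Prim1 and Prim2 of primase, Pole2, and Pold1, the catalytic subunit of polymerase delta. Prim1, the catalytic subunit of primase, had the lowest p in Samhd1 Cardif dKO against Samhd1 Sting dKO, with 366 ± 285 against 56.3 ± 22.4 normalized reads (SD, n = 3 each), for a change of 2.51 ± 0.68 (SE, adjusted p = 0.136). Its partner Prim2 had 0.97 ± 0.34 (SE, adjusted p = 0.205). Pola1 had a change of 1.28 there and Pola2 one of 0.36, and Pola2 overlapped between the groups; whether partners differed in change was not tested.

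Among the clamp and clamp loader genes, Pcna, the sliding clamp and a common marker of cycling cells, had 842, 1789 and 1073 normalized reads in the Samhd1 KO, 2746, 1205 and 1065 in the Samhd1 Cardif dKO, 808, 772 and 525 in the Samhd1 Sting dKO and 888, 1455 and 763 in the WT libraries. The Samhd1 Sting dKO libraries lay below those of Samhd1 KO and Samhd1 Cardif dKO and overlapped WT. The mean was 1235 ± 494 in Samhd1 KO against 1035 ± 369 in WT (SD, n = 3 each). The change between them was 0.24 ± 0.37 (SE, adjusted p = 0.778), and it ran from -0.07 without Samhd1 KO replicate 2 to 0.51 without WT replicate 2. In Samhd1 Cardif dKO against Samhd1 Sting dKO it was 1.14 ± 0.37 (SE, adjusted p = 0.173), and 0.72 without Samhd1 Cardif dKO replicate 1. A processed copy, Pcna-ps2, has a row of its own, and it is not stated how reads were divided between the copies, so its level is uncertain.

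Rfc1, the large subunit of the clamp loader, had 1757, 2229 and 1777 normalized reads in the Samhd1 KO, 2502, 1725 and 1780.2 in the Samhd1 Cardif dKO, 1572, 1413 and 1279.6 in the Samhd1 Sting dKO and 1452, 1782 and 1340.0 in the WT libraries. Samhd1 KO lay above WT except for WT replicate 2, and its change of 0.33 ± 0.16 (SE, adjusted p = 0.270) had the lowest p of the 45 in that comparison. Samhd1 Sting dKO lay below Samhd1 KO in all libraries, with -0.43 ± 0.16 (SE, adjusted p = 0.127). Chtf18, a subunit of an alternative clamp loader that works with sister chromatid cohesion, had 84.1, 345 and 240.4 normalized reads in the Samhd1 KO, 611, 189 and 193 in the Samhd1 Cardif dKO, 134, 72.0 and 32.2 in the Samhd1 Sting dKO and 92.8, 224 and 56.3 in the WT libraries. It was highest in Samhd1 Cardif dKO replicate 1 and Samhd1 KO replicate 2, and its changes were 0.85 ± 0.68 (SE, adjusted p = 0.540) in Samhd1 KO against WT, and 2.03 ± 0.68 (SE, adjusted p = 0.181) in Samhd1 Cardif dKO against Samhd1 Sting dKO. Dscc1, its partner, had the lowest level per kb of the 45 genes and a change of 1.88 in the comparison of the double knockouts. The small loader subunits Rfc2, Rfc3, Rfc4 and Rfc5 had changes of 0.50, 0.87, 1.25 and 1.00 there, and of 0.27, 0.30, 0.53 and 0.50 in Samhd1 KO against WT.

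The single-strand binding and joining genes were Rpa1, Rpa2 and Rpa3, which encode the trimer that coats single-stranded DNA, Fen1, the nuclease that trims lagging strand flaps, and Lig1, the ligase that seals them. Rpa1 had 1676, 2328 and 1622 normalized reads in the Samhd1 KO, 3189, 1574 and 1339 in the Samhd1 Cardif dKO, 1251, 926 and 997 in the Samhd1 Sting dKO and 1076, 2252 and 1235 in the WT libraries. Samhd1 Sting dKO lay below Samhd1 KO in every library, with a change of -0.82 ± 0.32 (SE, adjusted p = 0.156), and a fit to those 2 groups alone called it, at an adjusted p of 0.0353. Rpa3 had 153, 222 and 139 normalized reads in the Samhd1 KO, 188, 167 and 154 in the Samhd1 Cardif dKO, 132, 106 and 116 in the Samhd1 Sting dKO and 151, 158 and 130.4 in the WT libraries. Its highest library was Samhd1 KO replicate 2, its Samhd1 Sting dKO values were lower than those of Samhd1 KO and Samhd1 Cardif dKO, and the change against Samhd1 KO was -0.51 ± 0.18 (SE, adjusted p = 0.114). Lig1 had 330.5, 1819.8 and 786 normalized reads in the Samhd1 KO, 2920.0, 873 and 693 in the Samhd1 Cardif dKO, 511, 305 and 205 in the Samhd1 Sting dKO and 399, 1213 and 202 in the WT libraries. Its range was 14.4-fold, its Samhd1 KO libraries lay on both sides of WT replicate 1, and its changes were 0.76 ± 0.74 (SE, adjusted p = 0.622) in Samhd1 KO against WT, and 1.93 ± 0.74 (SE, adjusted p = 0.239) in Samhd1 Cardif dKO against Samhd1 Sting dKO. Rpa2 and Fen1 had changes of 1.20 and 1.28 in the same comparison of double knockouts, and of 0.25 and 0.38 in Samhd1 KO against WT.

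Chaf1a and Chaf1b encode subunits of chromatin assembly factor CAF-1, which places histones behind the fork. Chaf1a had 148, 697 and 381 normalized reads in the Samhd1 KO, 1093, 391 and 261 in the Samhd1 Cardif dKO, 156, 123 and 51.3 in the Samhd1 Sting dKO and 149, 383 and 66.0 in the WT libraries. Chaf1b had 76.6, 393 and 130.1 normalized reads in the Samhd1 KO, 599, 151 and 155 in the Samhd1 Cardif dKO, 73.7, 82.1 and 37.0 in the Samhd1 Sting dKO and 58.7, 187 and 32.6 in the WT libraries. Both were highest in Samhd1 Cardif dKO replicate 1 and Samhd1 KO replicate 2, and low in Samhd1 Sting dKO replicate 3 and WT replicate 3. In Samhd1 KO against WT their changes were 1.12 ± 0.73 (SE, adjusted p = 0.436) and 1.14 ± 0.73 (SE, adjusted p = 0.432). In Samhd1 Cardif dKO against Samhd1 Sting dKO the values were 2.26 ± 0.73 (SE, adjusted p = 0.170) and 1.97 ± 0.73 (SE, adjusted p = 0.221).

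Timeless and Tipin encode partners in the complex that stabilises forks. Tipin had 178, 365 and 279 normalized reads in the Samhd1 KO, 639, 380.3 and 302 in the Samhd1 Cardif dKO, 284, 290.2 and 181 in the Samhd1 Sting dKO and 158, 289 and 124 in the WT libraries. All 3 Samhd1 Cardif dKO libraries lay above WT, with a change of 1.23 ± 0.36 (SE, adjusted p = 0.143), and DESeq2 gave this change an adjusted p of 0.0201. Its Samhd1 Sting dKO libraries were not low: the change against WT was 0.46 ± 0.36 (SE, adjusted p = 0.491), and it was 1 of only 3 genes, with Orc2 and Pola2, above 0 there. Timeless, its partner, had -0.91 ± 0.76 (SE, adjusted p = 0.520) in the same comparison, and 2.28 ± 0.76 (SE, adjusted p = 0.178) in Samhd1 Cardif dKO against Samhd1 Sting dKO, beside 0.76 ± 0.36 (SE, adjusted p = 0.335) for Tipin.

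The genes of entry into S phase were E2f1, the activating E2F factor, and Ccne1 and Ccne2, the E cyclins that activate CDK2. E2f1 had 391, 717 and 472 normalized reads in the Samhd1 KO, 950.5, 574 and 482 in the Samhd1 Cardif dKO, 408, 259.9 and 285 in the Samhd1 Sting dKO and 386, 607 and 339 in the WT libraries. Its Samhd1 Sting dKO and Samhd1 Cardif dKO libraries did not overlap, and its Samhd1 KO and WT libraries did. The change was 1.04 ± 0.30 (SE, adjusted p = 0.150) in Samhd1 Cardif dKO against Samhd1 Sting dKO, -0.71 ± 0.30 (SE, adjusted p = 0.190) in Samhd1 Sting dKO against Samhd1 KO, and 0.25 ± 0.30 (SE, adjusted p = 0.705) in Samhd1 KO against WT, where it ran from -0.0011 without Samhd1 KO replicate 2 to 0.49 without WT replicate 2. Ccne1 had 31.3, 140.4 and 47.1 normalized reads in the Samhd1 KO, 208, 61.2 and 52.1 in the Samhd1 Cardif dKO, 41.8, 24.7 and 7.16 in the Samhd1 Sting dKO and 14.2, 79.2 and 8.15 in the WT libraries. It had the largest change of the 45 in Samhd1 KO against WT, 1.43 ± 0.87 (SE, adjusted p = 0.404), with a 95% interval of -0.46 to 3.33, and its WT libraries ran from below every Samhd1 KO library to above replicates 1 and 3. Ccne2 had the largest change in Samhd1 Cardif dKO against Samhd1 Sting dKO, 2.76 ± 0.88 (SE, adjusted p = 0.169), and ranged 34.9-fold over the libraries.

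The spread between libraries of the same genotype was wide for most of the 45 genes. The SD of log2 values within genotypes had a median of 0.620 over the 45 genes, from 0.118 (Orc2) to 1.33 (Pole), against 0.169 over all tested genes. Of the 45, 44 lay above the median of all genes and 22 above their 95th percentile of 0.689, and 34 lay above the 95th percentile of genes of like mean level. The median SE of a log2 change was 0.425 over the 45 genes, against 0.135 over all tested genes. The highest library exceeded the lowest by more than 2-fold for 35 genes within Samhd1 KO, for 39 within Samhd1 Cardif dKO, for 17 within Samhd1 Sting dKO and for 31 within WT. The top library within a genotype was mostly shared: it was Samhd1 KO replicate 2 for 43 of the 45 genes, Samhd1 Cardif dKO replicate 1 for 44, Samhd1 Sting dKO replicate 1 for 35 and WT replicate 2 for 45. The counts of ranges above 2-fold and of top libraries within a genotype were not made over all tested genes.

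**Figure D4:**
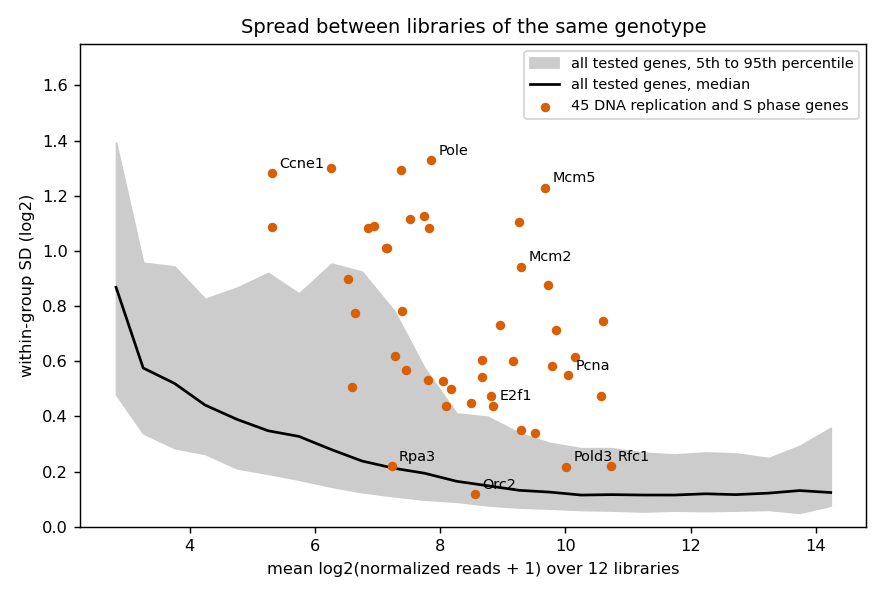
The SD of log2 values between libraries of the same genotype (y axis) against the mean log2(normalized reads + 1) over 12 libraries (x axis) for the 45 genes (points), with the median (line) and the 5th to 95th percentile (grey band) of all tested genes. Of the 45 genes, 34 lie above the 95th percentile of genes of like mean, and Orc2, Rpa3, Pold3 and Rfc1 are the lowest.

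Subunits of the same complex differed in this spread. In polymerase epsilon the SD was 1.33 for Pole and 0.620 for Pole2, and 0.240 and 0.213 for the histone-fold subunits Pole3 and Pole4, which are not among the 45. In polymerase delta it was 0.581 for Pold1, 0.448 for Pold2, 0.217 for Pold3 and 0.129 for the further subunit Pold4. In the origin recognition complex it was 0.439 for Orc6 and 0.118 for Orc2, and among subunits outside the 45 it was 1.29 for Orc1 and between 0.0853 (Orc3) and 0.138 (Orc5) for Orc3, Orc4 and Orc5. Orc1 had 12.4, 92.9 and 33.9 normalized reads in the Samhd1 KO, 152, 44.1 and 33.9 in the Samhd1 Cardif dKO, 26.4, 13.5 and 4.77 in the Samhd1 Sting dKO and 22.7, 67.8 and 8.15 in the WT libraries, which follows the library order of the 45 where Orc2 does not. In replication factor C it was 0.782 for Rfc4 and 0.220 for Rfc1, in GINS 1.09 for Gins2 and 0.508 for Gins3, and in RPA 0.542 for Rpa2 and 0.220 for Rpa3. The MCM subunits ranged from 0.616 (Mcm3) to 1.23 (Mcm5). These SDs were not tested against each other.

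Most of the 45 followed their common course closely. With each gene's group means removed, the Pearson correlation of a gene with the mean of the other 44 over the 12 libraries had a median of 0.964, and 38 genes lay over 0.9. The lowest were Orc2 at 0.236, Dbf4 at 0.560, Rpa3 at 0.707, Pold2 at 0.827 and Pold3 at 0.834. Outside the 45 and the other gene lists, the 10 genes most like that common course were Exo1 (0.988), Hells, Cryz, Pkmyt1, Fignl1, Hirip3, Wdr76, Gm1840, Dnajc9 and Brca2 (0.978). Their SD within genotypes ran from 0.127 for Gm1840 to 1.18 for Pkmyt1. The points share libraries and size factors, so these correlations describe the 12 libraries only.

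Many other genes of replication gave a like picture, while some varied little. Of 33 further replication genes, 0 were called in any of the 6 comparisons by limma, where 0.144% to 6.5% of all tested genes were. In Samhd1 KO against WT 1 had an unadjusted p under 0.05, beside 18.8% of all tested genes. In Samhd1 Sting dKO against Samhd1 KO 12 did, all lower, where 11.6% of all tested genes were. In Samhd1 Cardif dKO against Samhd1 Sting dKO 22 did, all higher, where 7.97% of all tested genes were. Dnmt1, the methyltransferase that copies DNA methylation, had 1433, 3490.0 and 2514 normalized reads in the Samhd1 KO, 5307, 2349.8 and 2258 in the Samhd1 Cardif dKO, 1566, 1403 and 1115 in the Samhd1 Sting dKO and 1453, 2328 and 1138 in the WT libraries. Mcmbp, the most abundant of the 33, ranged 1.36-fold, with an SD of log2 values within genotypes of 0.0981. That SD had a median of 0.522 over the 33 genes, from 0.0607 (Chtf8) to 1.48 (Uhrf1). Of these 33 genes, 26 were highest in Samhd1 Cardif dKO replicate 1. Of 14 genes of deoxynucleotide supply, 8 were highest there, among them Rrm2, the S phase subunit of ribonucleotide reductase, with a range of 76.2-fold, while its stress-induced paralog Rrm2b ranged 1.34-fold.

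Some genes of the neighbouring lists were called. In Samhd1 KO against WT these were 2 of 14 of deoxynucleotide supply and 2 of 28 of G1 to S control, beside 4.32% of all tested genes. Dck, the deoxycytidine kinase of nucleotide salvage, had 1760.4, 2082 and 1668 normalized reads in the Samhd1 KO, 2062, 1318 and 1259 in the Samhd1 Cardif dKO, 730.0, 776 and 559 in the Samhd1 Sting dKO and 1036, 1089 and 815 in the WT libraries. Its Samhd1 KO libraries all lay above WT and its Samhd1 Sting dKO libraries below every other group, and by its log2 change it was called in Samhd1 KO against WT (change of 0.91 ± 0.19 SE, adjusted p = 0.0212), in Samhd1 Sting dKO against Samhd1 KO (change of -1.42 ± 0.19 SE, adjusted p = 0.00154) and in Samhd1 Cardif dKO against Samhd1 Sting dKO (change of 1.14 ± 0.19 SE, adjusted p = 0.0327). Samhd1 itself was the other called gene of that list. Of 28 genes of G1 to S control, Cdkn2a and Cdkn2b, which encode inhibitors of the cyclin D kinases, fell in Samhd1 KO against WT, with log2 changes of -1.54 ± 0.22 (SE, adjusted p = 0.00506) and -0.98 ± 0.22 (SE, adjusted p = 0.0300). Cdkn2a had 108, 146 and 128 normalized reads in the Samhd1 KO, 346, 228 and 189 in the Samhd1 Cardif dKO, 151, 146 and 100.2 in the Samhd1 Sting dKO and 351, 402 and 354 in the WT libraries. It also fell in Samhd1 Sting dKO against WT (change of -1.49 ± 0.22 SE, adjusted p = 0.00362), while Cdkn2b rose in Samhd1 Sting dKO against Samhd1 KO (change of 0.87 ± 0.22 SE, adjusted p = 0.0423). E2f3, another activating E2F, rose in Samhd1 Sting dKO against WT (change of 0.56 ± 0.10 SE, adjusted p = 0.00735), and Myc, a driver of growth, rose in Samhd1 Sting dKO against WT (change of 0.67 ± 0.18 SE, adjusted p = 0.0496) and against Samhd1 KO (change of 0.71 ± 0.18 SE, adjusted p = 0.0429). Called genes of the list numbered 2 lower in Samhd1 KO against WT, 2 higher and 1 lower in Samhd1 Sting dKO against WT, beside 6.5% of all tested genes, and 2 higher in Samhd1 Sting dKO against Samhd1 KO, beside 5.66%, with 0 in the other 3 comparisons.

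Transcripts of mitosis, the division stage that follows, broadly followed those of replication, but not in the same proportion. The mean log2(normalized reads + 1) of 28 mitosis genes minus that of the 45 replication genes was -0.76, -0.24 and 0.72 in Samhd1 KO replicates 1 to 3, 0.05, -1.28 and 0.12 in those of Samhd1 Cardif dKO, -1.18, -1.37 and -1.78 in those of Samhd1 Sting dKO and -0.50, -0.43 and -1.53 in those of WT. Samhd1 KO replicate 3 had the highest of these differences, and 17 of 28 mitosis genes were higher in it than in Samhd1 KO replicate 2, against 1 of the 45 replication genes. Likewise all 28 mitosis genes were higher in Samhd1 Cardif dKO replicate 3 than in replicate 2, against 14 of the 45. Mki67, the gene of the Ki-67 proliferation antigen, had 908, 3146 and 3642 normalized reads in the Samhd1 KO, 5694, 1005 and 2203 in the Samhd1 Cardif dKO, 565, 436 and 291 in the Samhd1 Sting dKO and 853, 2029.7 and 322 in the WT libraries.

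Of the 28 mitosis genes, limma called 0 in any of the 6 comparisons, where 0.144% to 6.5% of all tested genes were called. In Samhd1 Sting dKO against Samhd1 KO the median change was -2.34, with a lowest adjusted p of 0.0583. There 27 had an unadjusted p under 0.05, all lower, where 11.6% of all tested genes were. In Samhd1 Cardif dKO against Samhd1 Sting dKO the median was 2.55, with a lowest adjusted p of 0.138. There all 28 had an unadjusted p under 0.05, all higher, where 7.97% of all tested genes were. The medians of the 45 replication genes in these comparisons were -0.83 and 1.28. In Samhd1 KO against WT the mitosis median was 1.32, beside 0.48 for the 45 genes. There 0 mitosis genes had an unadjusted p under 0.05 by limma, beside 18.8% of all tested genes.

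**Figure D5:**
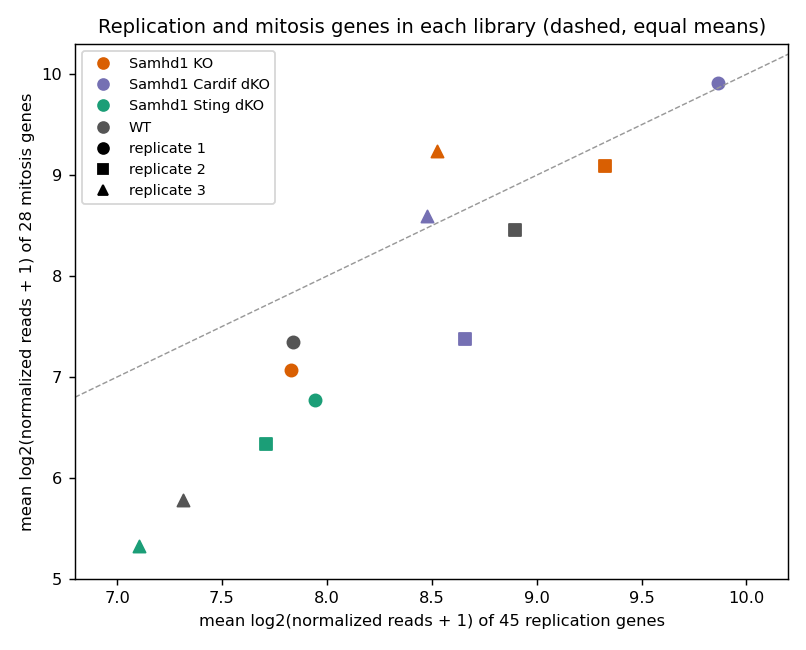
Mean log2(normalized reads + 1) of 28 mitosis genes (y axis) against that of the 45 replication genes (x axis) in each library; colour marks the genotype, shape the replicate number, and the dashed line equal means. Samhd1 KO replicate 3 lies 0.72 above the line, Samhd1 KO replicate 2 0.24 below it, and the 3 Samhd1 Sting dKO libraries 1.18 to 1.78 below it.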

How the data were processed

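Strand-specific, poly-dT-enriched RNA libraries were sequenced, per the labels' protocols. Genes and transcripts are those of Ensembl 61 on mm9, per the file headers; bedtools 2.16.2 and DESeq 1.6.1 are named in the submitters' processing notes, and the aligner, and whether counting used strand, are not given in the sources used here, so overlapping and antisense genes cannot be told apart. The deposited signal is a gene's reads after division by a size factor of the library, which the authors had applied. Whole reads were recovered from it for the count tests: 100% of the values were multiples of 1 smallest step per library, at a tolerance of 1e-04. The step of Samhd1 Cardif dKO replicate 2 was 1.00, where scaled reads and rounded ones cannot be told apart. The table holds genes with at least 1 read over the 6 dKO libraries. Its fold (a ratio of Samhd1 Sting dKO over Samhd1 Cardif dKO), log2 fold and p-value columns are the authors' deposited results and are used only as such. Transcript lengths are those of the deposited table.

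Limma 3.58.1 (R 4.3.3) was fitted with a variance trend to log2(normalized reads + 1) of 13231 genes, with a mean per genotype and 8 residual degrees of freedom, and p-values were adjusted by Benjamini-Hochberg over all tested genes of a comparison, with a threshold of 0.05. The pseudocount of 1 understates changes of low genes. On the recovered reads, edgeR 4.0.16 with TMM factors called 586 genes in Samhd1 KO against WT, beside 572 by limma. With 3 libraries a group, an exact permutation test of 1 value cannot go below a two-sided p of 0.1, so none was used. Alternatives were edgeR, DESeq2 1.42.0 and limma-voom, TMM scaling, other filters and pseudocounts, the compared groups alone, age as a covariate, a replicate block and each library left out.

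The 45 genes and all gene lists were chosen with earlier results of these data known, so no list was tested. Genes with values in every library are, for each role, those with the highest mean and with the largest and smallest change in Samhd1 KO against WT, and Pcna, Mcm2 and E2f1; genes on the other lists were named where called. Genes or libraries named beside these were chosen after their values were seen.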

Additional observations from a re-analysis of the deposited data

How the results depend on the processing

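Over 6 comparisons and 25 alternatives each, 146 of 150 fits called 0 of the 45 genes, as the reported fits did. DESeq2 called 8 in Samhd1 Cardif dKO against Samhd1 Sting dKO and 1 in Samhd1 Cardif dKO against WT. In Samhd1 Sting dKO against Samhd1 KO, 1 gene, Rpa1, was called in a fit of the compared groups only, and 1, again Rpa1 (-0.65, adjusted p = 0.0332), in a fit without Samhd1 KO replicate 2, Samhd1 Cardif dKO replicate 1 and WT replicate 2 together, which was chosen after seeing the data. That fit gave a median of 0.87 in Samhd1 Cardif dKO against Samhd1 Sting dKO. The cause of these differences was not tested. For both fits that called Rpa1, the share of all tested genes called is not given here. In the reported fit of Samhd1 Sting dKO against Samhd1 KO that share was 5.66%. With each library left out in turn, 0 genes were called in any comparison; the median log2 change ran from 0.11 to 0.94 in Samhd1 KO against WT, 0.53 to 1.46 in Samhd1 Cardif dKO against WT, -0.69 to 0.01 in Samhd1 Sting dKO against WT, -0.0043 to 0.83 in Samhd1 Cardif dKO against Samhd1 KO, -1.18 to -0.46 in Samhd1 Sting dKO against Samhd1 KO and 0.87 to 1.60 in Samhd1 Cardif dKO against Samhd1 Sting dKO. In Samhd1 KO against WT, leaving out libraries moved E2f1 between -0.0011 and 0.49, Mcm2 between -0.032 and 1.08 and Pcna between -0.066 and 0.51, and the values below 0 came without Samhd1 KO replicate 2. The median log2 change of all genes was at most 0.0102 in size in every fit. A replicate block called 0 of the 45 in every comparison. The labels do not say what a replicate number shares. The correlations of 18 same-numbered pairs ran from -0.427 to 0.369 and 7 lay over 0.1. Of the 12 libraries 3 correlated best with their own number. With 3 libraries a group these values cannot decide whether the numbers pair the libraries. With age as a covariate the median was 0.36 in Samhd1 KO against WT and 1.42 in Samhd1 Cardif dKO against Samhd1 Sting dKO. Depth limits mainly the lowest values, such as the 7.16 normalized reads of Ccne1 in Samhd1 Sting dKO replicate 3.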
